A study of Mus musculus with 2 samples.

Results

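The Hoxc cluster is the row of 9 homeobox genes Hoxc4, Hoxc5, Hoxc6, Hoxc8, Hoxc9, Hoxc10, Hoxc11, Hoxc12 and Hoxc13 on mouse chromosome 15, all transcribed from the plus strand. The CTCF peaks described here are the optimal peaks, those that passed the authors' irreproducible discovery rate filter, whose summits lie from 100 kb before to 100 kb after the span of these genes. There were 8 such peaks of 44533 in the list, 5 of them inside the span. The data are CTCF chromatin immunoprecipitation and sequencing from heart of B6NCrl mice at postnatal day 0. The labels name no treatment and no allele beyond the strain. The 2 libraries form 1 group. They carry the same donor and tissue sample in the labels, and their differences may therefore be technical. Sex was not collected. Heart tissue mixes cell types, and its markers cannot be read from binding sites, so the tissue label was not checked. Read depth is unknown from the peak lists, so no counting interval is given on a signal.

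Hox genes encode homeodomain transcription factors that give positions along the body axis their identity. Their order on the chromosome follows the order of the body regions in which they act, with Hoxc4 active nearest the head and Hoxc13 nearest the tail. CTCF is a zinc finger protein that halts cohesin and anchors chromatin loops, and its sites inside Hox clusters are known as boundaries between silent and active parts of a cluster. The core to which it binds is not symmetric, so each site also has a direction.

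The sites are numbered 1 to 8 along the chromosome, in the direction of Hoxc transcription. They are shown because the 3 strongest of them, sites 2, 4 and 5, have a stretch of letters in common. Each is given 5' to 3' on the strand of its core, in mm10, with the best match to the CTCF core consensus of 14 bases in capitals and 20 bases to each side.
Site 1, chr15:102943436-102943489, minus strand: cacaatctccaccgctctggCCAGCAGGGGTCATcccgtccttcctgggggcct
Site 2, chr15:102966552-102966605, plus strand: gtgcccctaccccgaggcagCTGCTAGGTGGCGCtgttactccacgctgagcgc
Site 3, chr15:102970914-102970967, minus strand: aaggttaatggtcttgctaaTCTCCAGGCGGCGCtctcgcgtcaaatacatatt
Site 4, chr15:102987573-102987626, plus strand: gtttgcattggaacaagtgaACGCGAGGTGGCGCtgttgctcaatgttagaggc
Site 5, chr15:103013682-103013735, plus strand: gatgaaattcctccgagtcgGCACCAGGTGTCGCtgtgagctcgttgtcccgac
Site 6, chr15:103077823-103077876, plus strand: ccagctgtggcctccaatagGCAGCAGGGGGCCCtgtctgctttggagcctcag
Site 7, chr15:103121602-103121655, minus strand: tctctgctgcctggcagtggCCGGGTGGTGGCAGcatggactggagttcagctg
Site 8, chr15:103130927-103130980, minus strand: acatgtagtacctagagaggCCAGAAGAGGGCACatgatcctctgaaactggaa

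Inside the cluster, the 5 CTCF peaks lay from 22.35 to 92.61 kb after the Hoxc13 start, in a span of 116 kb. The stretch without a peak at either end of the span was shorter than the gap of 26.1 kb between sites 4 and 5. Both stretches belong to longer gaps that run past the cluster. Site 1 (summit 102943454) lay in the interval from Hoxc12 to Hoxc11, intergenic, shortly past the 3' end of Hotair. Hotair is a noncoding RNA gene on the minus strand, from 102944062 to 102947730, and its 5' end was 4.28 kb from site 1. The gene 5' end nearest to site 1 was that of Gm27337, a short RNA record inside Hotair, 1905 bp away. Site 2 (102966582) lay 214 bp upstream of Hoxc10, which acts in the lumbar region and hindlimb. Site 3 (102970903) lay in the downstream coding exon of Hoxc10 and 2.45 kb upstream of the microRNA gene Mir196a-2. Site 4 (102987599) lay in the stretch that separates Hoxc9 from Hoxc8, 3.01 kb upstream of Hoxc8, a regulator of thoracic identity. Site 5 (103013708) lay after Hoxc6 and 107 bp upstream of the short transcript of Hoxc5, with the microRNA gene Mir615 starting 1.20 kb further on.

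Downstream of Hoxc4 the flank held 3 sites, and the flank before Hoxc13 held 0. Site 6 (103077860) was intergenic, 41.01 kb past the end of Hoxc4 and 18.6 kb upstream of 5730585A16Rik. Site 7 (103121623) was intergenic, 84.77 kb past Hoxc4, and site 8 (103130957) lay in an intron of the noncoding gene D930007P13Rik, 94.11 kb past Hoxc4. The gene 5' end nearest to both was that of the noncoding Gm49477, at 14.3 kb and 4.92 kb. By gene records, 1 of the 8 sites lay within 1000 bp of a 5' end, against 14.1% of all optimal peaks. By transcript records 2 did, sites 2 and 5, but the share of all optimal peaks by transcript records was not computed.

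**Figure D1:**
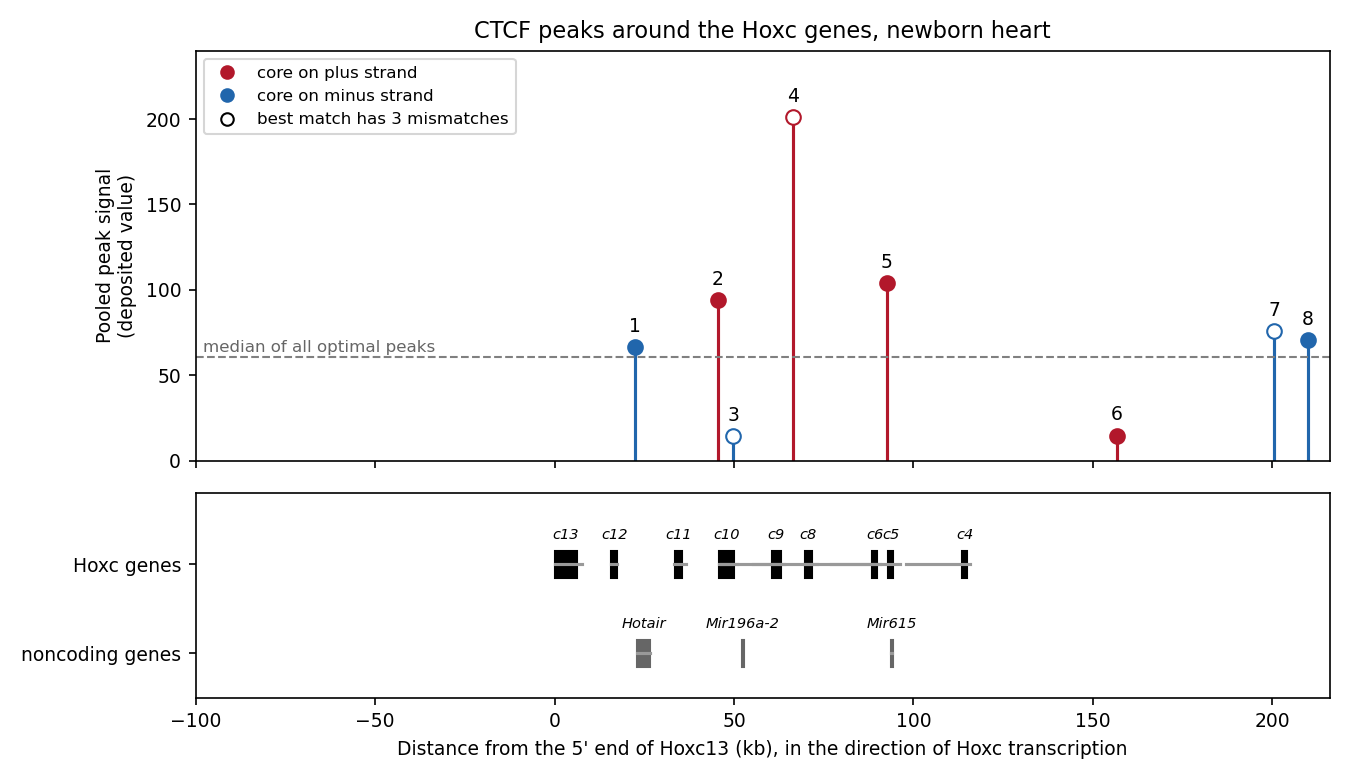
CTCF peaks (upper panel, height is the pooled deposited signal) and genes (lower panel, boxes run from start to stop codon of each Hoxc gene, introns included, or mark whole noncoding genes, lines are gene records; red and blue are plus and minus strand cores) against distance from the 5' end of Hoxc13 in kb. The 8 peaks start 22.35 kb into the cluster, the tallest is site 4 at 201, and sites 3 and 6 stand far below the median of all optimal peaks, 60.8.

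The strongest CTCF peak of the region was site 4, upstream of Hoxc8. Its pooled signal was 201, above 93.4% of the optimal list (rank 2923). Replicate 1 gave 116 and replicate 2 gave 83.8, a mean of 99.8 ± 22.6 (SD, n = 2). Both libraries ranked it as the strongest site of the region. The pooled signal is the authors' own value and is close to the sum of the libraries, so it is compared here only within the pooled list.

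Sites 5 and 2, close to the Hoxc5 and Hoxc10 starts, came next by pooled signal and repeated closely. Site 5 had a pooled signal of 104, with 54.9 in replicate 1 and 48.8 in replicate 2 (51.8 ± 4.32, SD, n = 2). Site 2 had 93.9, with 46.2 and 47.0 (46.6 ± 0.560, SD, n = 2). The values of the 2 sites did not overlap between libraries, but the gap between the lowest value of site 5 and the highest of site 2 was smaller than the SD at site 5, so their order is not settled. Both lay below site 4 in each library.

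Sites 7, 8 and 1 formed a middle class whose order depended on the library. Site 7 had a pooled signal of 75.7, with 30.5 in replicate 1 and 43.6 in replicate 2. Site 8 had 70.4, with 48.4 and 22.7, so it stood above sites 7 and 2 in replicate 1 and below both in replicate 2. Site 1, near Hotair, had 66.3, with 27.9 and 37.8. The means were 37.0 ± 9.25, 35.6 ± 18.1 and 32.9 ± 6.95 (SD, n = 2), and all differences among them were within these SDs.

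Sites 3 and 6 were weak. The site in the Hoxc10 coding exon had a pooled signal of 14.4, above 4.34% of the list, with 6.25 in replicate 1 and 7.85 in replicate 2. Its summit in replicate 1 was displaced by 60 bp, where the other sites moved by at most 15 bp in either library. Site 6 had a pooled signal of 14.7, with 9.75 and 5.13, and it ranked 41279 in replicate 1 and 84910 in replicate 2. It was the only site of the 8 whose summit was not in the authors' conservative list, which held 7 of them, against 89.4% of all optimal peaks. Both counts required the same summit, and they did not change when a conservative summit within 100 bp was accepted.

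All 8 sites had a summit in both relaxed lists, as had 97.1% of all optimal peaks. The libraries differed without a common direction: replicate 1 gave the higher signal at 4 sites (4, 5, 6 and 8) and replicate 2 at the other 4. The median log2 ratio of replicate 2 to replicate 1 was -0.08, against -0.22 over all optimal peaks seen in both. Site 8 differed most, 2.13-fold higher in replicate 1 (log2 ratio -1.09). That is just outside the range of -1.05 to 0.59 that held the ratios of all optimal peaks from the 5 to the 95 percent point. Its core lies wholly in sequence masked as repeats (100%), a state shared by none of the other 7 cores. Over all optimal peaks the mean masked share of the core was 18.1%. Any part of the masked sequence in the difference between libraries was not tested.

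**Figure D2:**
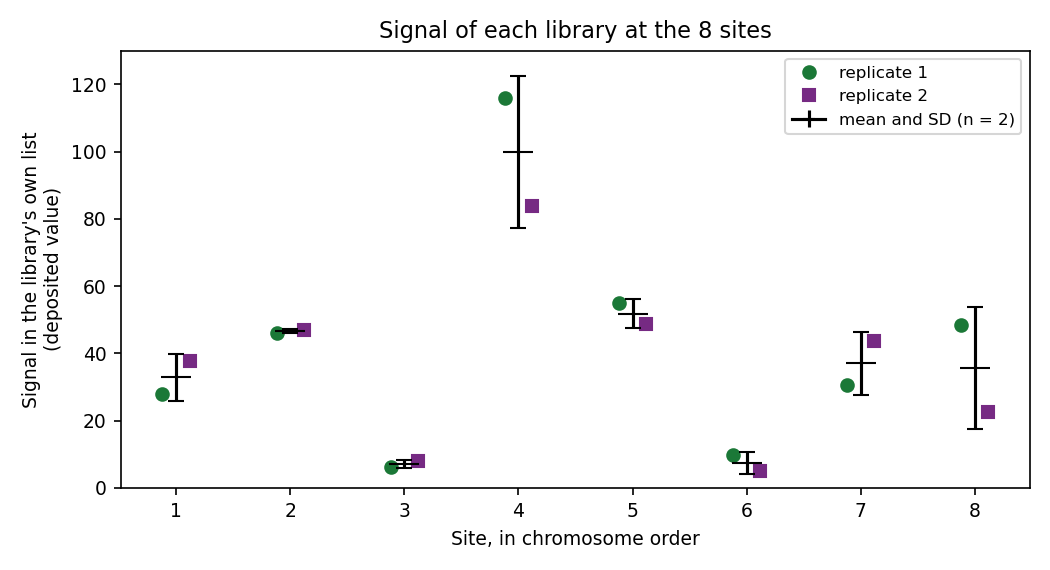
Signal in each library's own relaxed list (vertical axis, deposited value, not scaled between libraries) at the 8 sites in chromosome order (horizontal axis), with the mean and SD of the 2 libraries. Site 4 is highest in both libraries at 116 and 83.8, sites 3 and 6 lie below 10 in both, and site 8 spreads from 22.7 to 48.4.

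Of the 9 Hoxc genes, 6 had a peak no farther than 10 kb from the start of the gene record (66.7%), against 50.3% of the 21938 protein-coding genes. Members share sites, so these are not 6 separate results. Hoxc10 and Hoxc5 were nearest, at 214 bp and 861 bp from site 2. The record of Hoxc5 starts at 102967443, inside Hoxc10, because 1 of its 2 transcripts, a noncoding one, runs from there across Hoxc9, Hoxc8 and Hoxc6. Sites 3, 4 and 5 therefore lie inside the Hoxc5 record. Its coding transcript starts at 103013815, next to site 5, so on either start Hoxc5 has a peak close by, but not the same peak.

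Hoxc8, Hoxc4, Hoxc9 and Hoxc12 had their nearest peak at 3.01, 5.23, 5.54 and 6.70 kb. For Hoxc9, which marks thoracic levels of the spinal cord, that nearest peak was the weak site 3 (signal 14.4), while site 2 (93.9) also lay within 10 kb. Hoxc4, the member acting nearest the head, had site 5 upstream, and no optimal peak lay within the gene. Hoxc12 had site 1 downstream of its start.

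Hoxc6, Hoxc11 and Hoxc13 had no peak so near. Hoxc6 and Hoxc11 missed the limit narrowly, at 10658 and 10973 bp. Hoxc13, which is known for its role in hair and nails, was 22.4 kb from site 1, farther than 68.5% of protein-coding genes are from a peak. Counting from every transcript start, Hoxc6 came within 4135 bp of site 5. The count then became 7 of 9 genes, against 59.2% of protein-coding genes. With a limit of 5 kb, 3 of the 9 genes were left (33.3%), against 38.0% of protein-coding genes, so the members' share then lay below the background. The median distance was 5.54 kb for the members and 9.85 kb for all protein-coding genes.

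**Figure D3:**
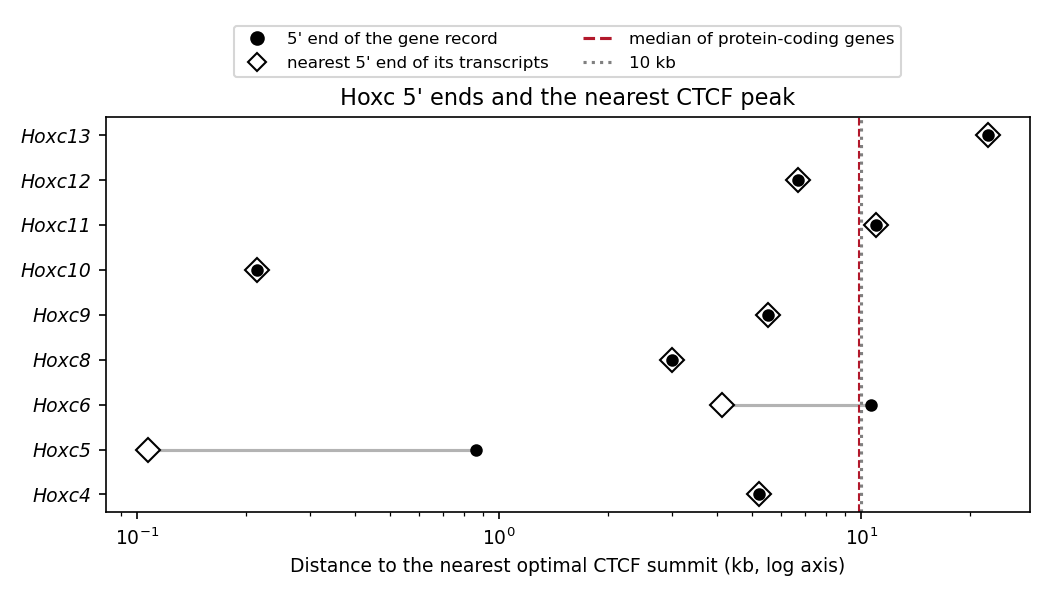
Distance in kb (log axis) from the 5' end of each Hoxc gene, in order along the cluster, to the nearest optimal CTCF summit, from the gene record (filled circles) and from the nearest of its transcripts (open diamonds). Distances run from 0.107 kb at the short Hoxc5 transcript to 22.4 kb at Hoxc13, and the start used matters for Hoxc5 and Hoxc6 only.

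The span of 116 kb held 43.2 peaks per Mb, 2.43 times the density of chromosome 15 (17.8 per Mb). Each library's own 44533 strongest peaks gave ratios of 1.93 in replicate 1 and 2.42 in replicate 2 (mean 2.18 ± 0.345, SD, n = 2). Replicate 1 had 4 peaks in the span, since site 3 was not among its strongest. With only peaks at or above the median signal counted, the ratio was 3.72. A count of 5 or more was not rare for this chromosome: 15.5% of 898 consecutive windows of the same length had as many. With the flanks the density fell to 25.3 peaks per Mb, 1.43 times that of the chromosome.

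The peaks were not evenly spread. From site 1 back to the nearest optimal peak outside the region, at 102807567 in an intron of Gm36560 (signal 55.0), there was a gap of 136 kb, longer than 91.2% of all gaps between neighbouring optimal peaks. Hoxc13 and Hoxc12 lie in it. Sites 1 to 5 followed at gaps of 23.1, 4.32, 16.7 and 26.1 kb, around the median of 20.8 kb for all peaks. From site 5 to site 6 the gap was 64.2 kb, and it holds the rest of Hoxc5 and the whole of Hoxc4. Without the weak site 6, which is absent from the conservative list, it was 108 kb.

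Below the authors' threshold, the pooled relaxed list had 35 further summits in the region, at signals of 5.29 to 10.8. Of these, 2 were found in both libraries (5.71%), against 11.6% of relaxed peaks outside the optimal list in general. They lay at 103013188, shortly before site 5 (signal 7.42), and at 103135554, close to the start of Gm49477 (10.8). The gap over Hoxc13 and Hoxc12 held 12 of the 35, and 0 of the 12 were found in both libraries.

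The core consensus was matched with at most 2 mismatches at 5 of the 8 sites (62.5%), against 73.5% of all optimal peaks. With 3 mismatches allowed it was matched at all 8, against 91.3%. The exact number of mismatches did not follow the signal. Site 4, the strongest, had 3 mismatches, at positions 1, 3 and 5 counted from the 5' end of the core, and matched the consensus from position 6 on. Of the 7912 optimal peaks with 3 mismatches, 186 were as strong as site 4 or stronger (2.35%), and their median signal was 36.4. Site 8, of middle strength, had the best match of the region, with 1 mismatch at position 5.

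The 3 strongest sites, upstream of Hoxc8, Hoxc5 and Hoxc10, shared one stretch on the same strand, which begins at position 4 of the core and runs 3 bases past its end.
Shared stretch, where N is any base: CNAGGTGNCGCTGT
It has 12 fixed letters and was read off these 3 sites, so its presence in them is given by the choice and is no evidence. Searched on both strands within 50 bp of the summit, it was found at 80 of the 44518 optimal peaks (0.180%) and in 2 windows of that size placed 1000 bp to the left of them. The 80 peaks, these 3 included, had a median signal of 153, and the other optimal peaks had 60.7. All but the last 3 bases of the stretch lie in the core, and it was read off strong sites. Neither comparison can therefore separate the stretch from the core itself, and other variants of the core were not tested. It was found at 0 of the 21 optimal peaks in the spans of the other Hox clusters. At a share of 0.180% over all optimal peaks, that count does not set Hoxc apart.

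Pairs of cores among the 8 sites had from 6 to 11 of 14 bases in common (median 8). The closest pair was sites 2 and 4, with 11. The 5 sites of the cluster had 44.3 to 63.7% GC within 100 bp of the summit and 6 to 15 CpG pairs there, against medians of 49.8% and 3 over all optimal peaks. Site 2, next to the Hoxc10 start, had the most CpG pairs, and site 4 had 3 CpG pairs in its core alone. Sites 6 and 8, downstream of the cluster, had 0 CpG pairs within 100 bp.

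Read along the chromosome with up to 3 mismatches allowed, the strands of the cores were minus, plus, minus, plus, plus, plus, minus and minus. The strong sites within the cluster (2, 4 and 5) pointed along the direction of transcription, towards Hoxc4. Sites 7 and 8, downstream, pointed back at them. Site 1, at the other side, pointed away from them. At sites 3, 4 and 7 the strand rests on a match with 3 mismatches. At site 3 the middle of the core also lay 37.5 bp from the summit, against at most 10.5 bp at the other sites. With at most 2 mismatches 3 cores were on the plus strand and 2 on the minus strand.

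The other 3 clusters, which arose with Hoxc from the same ancestral row of genes, held 7 peaks (Hoxa), 9 peaks (Hoxb) and 5 peaks (Hoxd) in their spans. In peaks per Mb, Hoxc was lowest at 43.2, against 51.6 in Hoxd, 51.7 in Hoxb and 66.5 in Hoxa. The chromosomes also differ, with 17.8 peaks per Mb for Hoxc, 18.4 for Hoxd, 26.7 for Hoxb and 16.8 for Hoxa. Relative to its own chromosome, Hoxc (2.43) lay between Hoxb (1.94) and Hoxd (2.80), with Hoxa highest (3.96). Library by library the ratios were 1.93 and 2.42 for Hoxc and 1.74 and 1.72 for Hoxb. They were 2.76 and 3.28 for Hoxd and 4.01 and 3.41 for Hoxa. The 4 ranges did not overlap, but they rest on 4 to 8 peaks per span and library, so a single peak more or less moves them. Genes with a peak within 10 kb were 6 of 9 Hoxc genes, 9 of 11 Hoxa genes, 7 of 10 Hoxb genes and 8 of 9 Hoxd genes. The highest pooled signal was 201 in Hoxc, 187 in Hoxa, 171 in Hoxd and 136 in Hoxb.

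Of the 5 Hoxc sites, 3 had a counterpart in other clusters, meaning a peak between the same neighbouring paralogues, and these were the 3 strong ones. This rule leaves out peaks in longer intervals, where a cluster lacks a gene that Hoxc has. With such intervals accepted all 5 sites had at least 1 peak. Just upstream of the Hoxc5 start, site 5 lay at 107 bp, and peaks lay 71 bp upstream of Hoxa5 (signal 94.4) and 93 bp upstream of Hoxb5 (104). Their means over the libraries were 47.1 ± 11.9 and 50.5 ± 3.99, against 51.8 ± 4.32 at site 5 (SD, n = 2). Each difference was within the larger SD of its pair, though site 5 and Hoxa5 differed by slightly more than the SD at site 5. Site 4 lay 3008 bp upstream of Hoxc8, and peaks lay 2953 bp upstream of Hoxb8 (signal 136) and 2212 bp upstream of Hoxd8 (166). Site 4 was the highest of these in both libraries, at 116 and 83.8, against 82.9 and 53.7 for Hoxb8 and 82.0 and 83.4 for Hoxd8, but in replicate 2 it exceeded Hoxd8 by far less than its own SD of 22.6. Around the Hoxc10 start, site 2 lay 214 bp upstream, with one peak 141 bp upstream of Hoxd10 (44.2) and one 249 bp downstream of the Hoxa10 start (97.0). Hoxd had a further peak in that interval, 4171 bp downstream of the Hoxd11 start (76.3). Sites 1 and 3 had no counterpart by the strict rule. By the wider rule, site 1 had the peak from Hoxa13 to Hoxa11 (signal 133, core against the genes, as at site 1), where Hoxa has no Hoxa12. The 5 peaks from Hoxb13 to Hoxb9 then also face sites 1, 2 and 3, and their places cannot be assigned to one of them. The wider rule added a peak from Hoxa9 to Hoxa7 (187) for site 4 and one from Hoxd8 to Hoxd4 (171) for site 5.

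The counterparts next to these starts are shown for comparison with sites 5, 4 and 2 above, each of 30 bases with the best core match in capitals.
Hoxa5, chr6:52204649-52204678, minus strand: cccagtctCCAGCGGGTGGCGCtcgagtcc
Hoxb5, chr11:96303237-96303266, plus strand: gtcaatcgCCGGGAGGTGGCGCgctctgct
Hoxb8, chr11:96278940-96278969, plus strand: cacagtggCCGCTAGATGGCATccttgctc
Hoxd8, chr2:74702387-74702416, plus strand: gcatttggCCACTAGAGAGCGCtgttgctc
Hoxa10, chr6:52240531-52240560, minus strand: cgcagccgCCACGAGATGGCGCactcccga
Hoxd10, chr2:74691755-74691784, plus strand: acaggcgcTTAGTAGATGTCGCtgttgtcc

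Strict counterparts of the Hoxc sites pointed the same way as those sites. In the 3 intervals with a Hoxc peak and one elsewhere, 10 of 10 peaks of the 4 clusters had their core in the direction of Hox transcription, against 4 of the other 16 peaks. The intervals were picked after their peaks were seen, and 5 of the other 16 lie in the long interval from Hoxb13 to Hoxb9, with 0 along the genes. The other 16 also include intervals shared by Hoxa and Hoxb without a Hoxc peak. From Hoxa5 to Hoxa4 and Hoxb5 to Hoxb4 both peaks pointed along the genes. From Hoxa7 to Hoxa6 and Hoxb7 to Hoxb6 both pointed against them. Leaving out matches with 3 mismatches, the counts were 8 of 8 and 4 of 12. By the wider rule, 12 of 20 peaks pointed along the genes and 2 of the other 6. The uniform direction along the genes thus depends on the strict rule and on the choice of intervals with a Hoxc peak.

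The letters were less alike than the places. Aligned on the core with 10 bases to each side, Hoxc sites had 14 to 21 of 34 bases in common with their counterparts (median 19 over 7 pairs). Hoxc sites and peaks in other intervals had 8 to 24 in common (median 15 over 98 pairs), so the ranges overlap. The highest value of all, 24, joined site 4 to the peak 3670 bp downstream of the Hoxa13 start, in another interval. The closest counterpart was Hoxd8, with 21 bases in common with site 4. They shared an unbroken run of 12 bases, GCGCTGTTGCTC, at the end of the core and after it. This likeness was not particular to the paired places. The same Hoxd8 peak had 22 bases in common with the site upstream of Hoxc10, which lies in another interval and carries the start of that run, GCGCTGTT. Site 4 also had 21 in common with the peak from Hoxd8 to Hoxd4, in another interval by the strict rule. All cores were picked for likeness to one consensus, which raises every value.

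**Figure D4:**
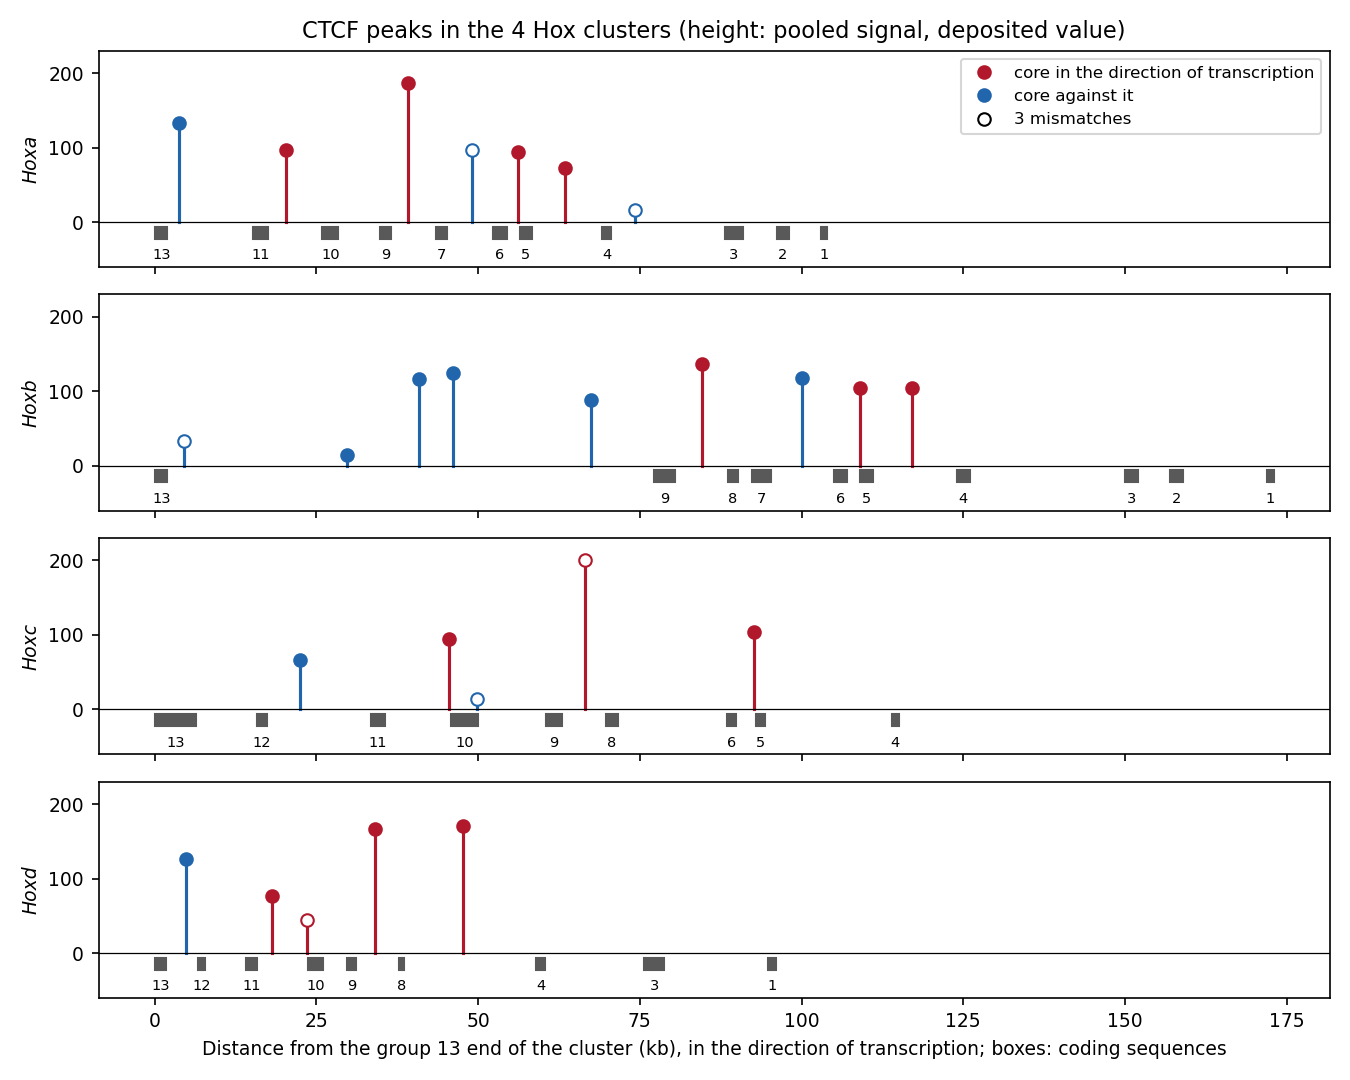
Optimal CTCF peaks in the spans of the 4 Hox clusters, with pooled deposited signal (vertical axis) against distance in kb from the end that carries the Hox13 gene, along transcription. Red cores point along the genes and blue ones against them: near the Hox5 and Hox10 starts and upstream of the Hox8 genes, the 3 strong Hoxc peaks and their strict counterparts are all red.

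HOX proteins bind DNA together with cofactors of the PBX, MEIS and PKNOX families. Of the 9 cofactor genes, 6 had a peak within that distance of their start, and the strongest were 0.0710 kb from the start of Pknox2 (signal 123) and 5.67 kb from that of Meis1 (120). The 30 Hox genes outside the Hoxc cluster had a peak within 10 kb at 24. The background of protein-coding genes is the 50.3% given above.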

How the data were processed

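CTCF ChIP-seq peak lists of 2 libraries were analysed. The deposited signal value of each peak and the summit offset in bp are those of the authors. Per the labels and the deposited text files beside the lists, the build is mm10, relaxed lists (300000 peaks each) were called on each library and on both against a control alignment, and the optimal and conservative lists (44533 and 43221 peaks) were derived from them by the irreproducible discovery rate (IDR). For the aligner and the peak caller, names and versions were not given in the sources used here. Every count used the optimal list unless stated.

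A summit is the peak start plus the offset, counted from 1. GENCODE M21 gave genes and the RefSeq copy of GRCm38 gave sequence. The rule of selection took summits from 100 kb before to 100 kb after the span of the 9 genes. Comparisons over all genes or peaks used chromosomes 1 to 19, X and Y. A library was counted as having a site when its relaxed list had a summit within 100 bp. The CTCF core consensus (14 bases, degenerate) was searched on both strands within 50 bp of each summit, and the match with the fewest mismatches was kept. Scripts ran in Python 3.11.15 with numpy 2.4.6, pandas 2.3.3 and pysam 0.24.0. The core search, summit matching and gene counts were tested on simulated data. For the core search the pass rule covered the number of mismatches only, not strand or place.

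With 1 group there is no contrast and no test was made. Genes and gene lists were chosen with earlier results of these data known. The rule for names took all members, the genes that hold a site or have the nearest 5' end, Hotair, Mir196a-2, Mir615, Hox genes at the same place in the other clusters, and the 2 cofactor genes with the strongest peaks. The comparison of places across clusters and the stretch shared by the strongest sites were chosen after the values were seen. Alternatives were the conservative list, either library left out, stronger peaks only, and other windows, distances, 5' ends and mismatch limits.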

Additional observations from a re-analysis of the deposited data

How the results depend on the processing

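Of 63 alternative values for 10 results, 47 stayed close to the reported value and 16 moved beyond the limit set for counts or beyond 1 SD. A window of 200 kb on either side raised the peaks from 8 to 24, all 24 found in both libraries, those with a core from 5 to 19, those with a plus strand core from 3 to 8 and the longest gap to 136 kb, as it takes in more sequence. That gap was 108 kb in place of 64.2 kb in the conservative list and with peaks below the median signal dropped, and 64.1 to 108 kb with either library left out. Site 6 is missing without replicate 1 and kept without replicate 2. The density ratio of the span ran from 1.93 to 2.42 with either library left out (1.93 without replicate 2), against 2.43, and was 3.72 once those weaker peaks were dropped. A limit of 5 kb left 3 Hoxc genes in place of 6. With at most 1 mismatch 1 site had a core and 0 had one on the plus strand, and with at most 3 mismatches 8 had a core. The strongest signal was 83.8 to 116 in single libraries, whose scale is not that of the pooled 201. Accepting longer intervals where a cluster lacks a paralogue, an alternative chosen after seeing the data, raised the Hoxc sites with a counterpart from 3 to 5. No paired analysis was possible because the libraries form 1 group. Depth is unknown, and with 2 libraries of 1 tissue sample the SDs limit what can be ranked.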

Other observations

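Beyond the region described, CTCF peaks became dense on the Hoxc4 side. The 10 optimal peaks next past it lay 129 to 169 kb after the end of Hoxc4, 1 in an intron of Smug1, which encodes a uracil DNA glycosylase, 8 between genes upstream of it, and 1 in an intron of Cbx5, the gene of a heterochromatin protein. Their pooled signals ran from 22.4 to 262. The strongest had a pooled signal of 262 (147 in replicate 1 and 115 in replicate 2) and lay 15254 bp upstream of Smug1, so it exceeded site 4. The nearest to the cluster, 1476 bp into Smug1, had 233 (123 and 111) and a core on the minus strand, as had sites 7 and 8. On the Hoxc13 side the next peak, in Gm36560, had 55.0 (29.4 and 26.5).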
